A study of Arabidopsis thaliana with 4 samples.

Results

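Abscisic acid (ABA) is the hormone through which *Arabidopsis thaliana* responds to drying, salt and dormancy, and in roots it also acts on growth and on lateral root formation. The genes described here are those that make the hormone, break it down and carry its signal to the nucleus. They were chosen by locus from a fixed list of 41 genes, out of 28642 loci in the deposited gene table. The list holds 9 synthesis genes, 4 breakdown genes, 9 receptor genes, 9 phosphatase genes, 3 kinase genes and 7 transcription factor genes. The rule itself uses no measured value, but the list was chosen with earlier results of these data known. The paper had already reported its synthesis gene *NCED3* as differentially expressed in these libraries.

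RNA was taken from whole roots of *atx1setm* and of the wild type Wassilewskija (Ws), with 2 biological replicates of each genotype. The *atx1setm* plants carry an *ATX1* transgene whose product has substitutions in the SET domain that remove its histone methyltransferase activity, and this transgene stands in the *atx1-1* null background of Ws. The Ws plants carry neither change, and no treatment is named for either genotype. The labels give seedlings of 10 days, while the methods give a younger age for the same experiment. The null mutant without the transgene was not analysed here, so loss of the native gene and presence of the altered protein cannot be told apart.

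The libraries held 38574293 to 46439122 exon reads. *ATX1* transcripts of the transgene map to the native locus, and its log2 fold change was -0.53. The root gene *PYK10* had 445231 and 452973 reads in *atx1setm* and 414465 and 396652 in Ws, and the 3 seed storage genes had at most 10 reads in any library. Of the 6 root markers, 1 was higher in *atx1setm* and 0 lower at an unadjusted p under 0.05 by edgeR's quasi-likelihood test. Among all genes tested these shares were 4.93% and 4.78%. The higher one was *WOX5*, with 222 and 187 reads in *atx1setm*, 87 and 67 in Ws and a log2 fold change of 1.46. *EIR1* came next by p, at -0.66, and did not pass. No xylem, phloem or root cap marker passed, and the medians of these lists were 0.03, 0.19 and 0.27. The 7 green shoot markers together had 92.8 and 283 CPM (counts scaled to library size and TMM) in *atx1setm* replicates 1 and 2 and 150 and 242 CPM in Ws replicates 1 and 2, so that they were higher in replicate 2 of both genotypes. None of the 6 that could be tested differed between genotypes at an unadjusted p under 0.05. Libraries also differed by transcript length, which bears on the results that follow. Among all genes tested with exons of up to 1000 nucleotides (nt) in sum, the median log2 fold change between genotypes was 0.33, whereas it was -0.34 among genes over 2500 nt. The same classes differed between the 2 *atx1setm* replicates, by a median of -0.53 and 0.71 on the log2 scale (replicate 1 minus replicate 2), and less so between the 2 Ws replicates, by -0.14 and 0.29. Values with a correction for this trend (an exon length offset, chosen after seeing the data) are therefore given for the main results.

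The pathway starts from carotenoids in the plastid. Zeaxanthin epoxidase makes the precursors, a dioxygenase of the NCED family cuts them, and a short chain dehydrogenase and an aldehyde oxidase finish the hormone, whereas cytochromes of the CYP707A family hydroxylate it to inactive products. Without ABA, clade A type 2C protein phosphatases keep the SnRK2 kinases inactive. When a receptor of the PYR/PYL family binds ABA it captures a phosphatase, the kinases become active, and they phosphorylate bZIP transcription factors that bind the ABA response element with its core ACGTG. Several members of the pathway, including phosphatases and breakdown enzymes, are themselves induced by ABA.

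Because the bZIP factors bind this core element, the 250 bases before each gene's start were searched for ACGTG on both strands. All 41 genes had a RefSeq start (TAIR10.1, accession Columbia, whereas the libraries are from Ws). The core was present in 19 of the 41 windows (46.3%), against 22.9% of the windows of 27443 protein-coding genes. The longer form ACGTGTC, which contains the core, was present in 22.0% and 3.68%, and the palindrome CACGTG, which counts on both strands, in 22.0% and 6.49%. Another longer form that was searched, ACGTGGC, was present in 4.88% and 3.37%, which are close to each other. By step, the core was found in 6 of 9 phosphatase genes, 4 of 7 transcription factor genes, 3 of 4 breakdown genes, 3 of 9 synthesis genes, 2 of 9 receptor genes and 1 of 3 kinase genes. The windows printed here belong to 6 of the 8 genes with an unadjusted p under 0.05 between genotypes, and show both those with the core and those without it. Capitals mark ACGTG or its reverse complement, and each window is written in the direction of its gene.
CYP707A3: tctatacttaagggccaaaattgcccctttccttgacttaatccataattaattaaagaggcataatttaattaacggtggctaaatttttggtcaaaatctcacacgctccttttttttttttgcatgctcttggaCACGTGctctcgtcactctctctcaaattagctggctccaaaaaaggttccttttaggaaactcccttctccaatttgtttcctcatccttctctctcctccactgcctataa
HAI2: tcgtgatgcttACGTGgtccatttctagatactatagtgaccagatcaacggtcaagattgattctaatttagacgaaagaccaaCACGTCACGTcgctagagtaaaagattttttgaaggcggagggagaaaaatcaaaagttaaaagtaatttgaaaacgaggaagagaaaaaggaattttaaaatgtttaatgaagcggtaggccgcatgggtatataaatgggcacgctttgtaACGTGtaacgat
HAI3: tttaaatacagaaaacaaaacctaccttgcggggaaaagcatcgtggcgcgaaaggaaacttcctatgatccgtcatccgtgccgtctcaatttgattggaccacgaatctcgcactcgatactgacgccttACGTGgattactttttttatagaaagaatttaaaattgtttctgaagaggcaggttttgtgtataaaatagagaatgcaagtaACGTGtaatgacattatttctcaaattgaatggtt
ABF3: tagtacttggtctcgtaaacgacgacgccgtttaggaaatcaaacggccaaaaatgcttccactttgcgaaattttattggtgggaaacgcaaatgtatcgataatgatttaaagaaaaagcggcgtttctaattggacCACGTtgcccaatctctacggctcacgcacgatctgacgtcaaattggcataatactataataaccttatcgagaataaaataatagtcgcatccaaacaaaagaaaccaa
NCED3: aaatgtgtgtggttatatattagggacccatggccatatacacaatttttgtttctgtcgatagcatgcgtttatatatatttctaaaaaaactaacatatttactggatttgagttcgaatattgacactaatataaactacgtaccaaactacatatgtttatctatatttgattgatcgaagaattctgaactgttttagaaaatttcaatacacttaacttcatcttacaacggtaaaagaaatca
PYL6: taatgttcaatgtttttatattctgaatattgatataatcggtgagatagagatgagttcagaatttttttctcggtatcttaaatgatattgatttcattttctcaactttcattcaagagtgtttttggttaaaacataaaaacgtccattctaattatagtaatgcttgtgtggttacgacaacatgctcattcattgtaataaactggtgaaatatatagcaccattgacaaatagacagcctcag

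These windows lie at chr5:18371022-18371271 (minus strand), chr1:2282829-2283078 (minus), chr2:12608425-12608674 (plus), chr4:16295084-16295333 (plus), chr3:4834016-4834265 (minus) and chr2:16846195-16846444 (minus), and they overlap no other gene. The breakdown gene *CYP707A3* holds a single CACGTG, the phosphatase gene *HAI2* holds 4 cores, of which a pair is adjacent, *HAI3* holds 2 and the transcription factor gene *ABF3* holds 1. *ABI5*, with 7 matches, and *ABA3* and *PP2CA*, with 5 each, held the most (a palindrome counts on each strand). The counts depend on where a gene is taken to start. RefSeq places the start of *NCED3* 416 bases upstream of the one in the deposited table, and with the deposited starts the core was present in 22 of 41 windows (53.7%), *NCED3* among them, against 25.0% of all protein-coding genes. A match is a description of letters and not of a bound site.

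Receptors were the most abundant step per exon length. Their summed RPKM (reads scaled to exon length and to mapped reads) was 600 and 939 in *atx1setm* and 436 and 487 in Ws. The 3 kinases summed to 91.5 and 84.8 RPKM in *atx1setm* and 94.0 and 85.1 RPKM in Ws, a difference smaller than the spread between replicates. Synthesis genes summed to 39.5 and 38.9 RPKM in *atx1setm* and 50.3 and 48.8 RPKM in Ws, and phosphatases to 55.3 and 50.7 RPKM in *atx1setm* and 67.2 and 84.5 RPKM in Ws. Transcription factors summed to 44.3 and 23.9 RPKM in *atx1setm* and 62.2 and 52.6 RPKM in Ws. In these last 3 steps both *atx1setm* sums lay below both Ws sums, and in the receptors both lay above. For synthesis the gap between the mean sums, 39.2 RPKM in *atx1setm* and 49.5 RPKM in Ws, was mostly that of *NCED3*. This gene had means of 2.53 RPKM in *atx1setm* and 12.7 RPKM in Ws. The breakdown sums overlapped, with 24.9 and 9.96 RPKM in *atx1setm* and 31.2 and 18.2 RPKM in Ws. In RNA from whole roots, fewer cells that express a gene and less RNA per cell cannot be told apart.

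**Figure D1:**
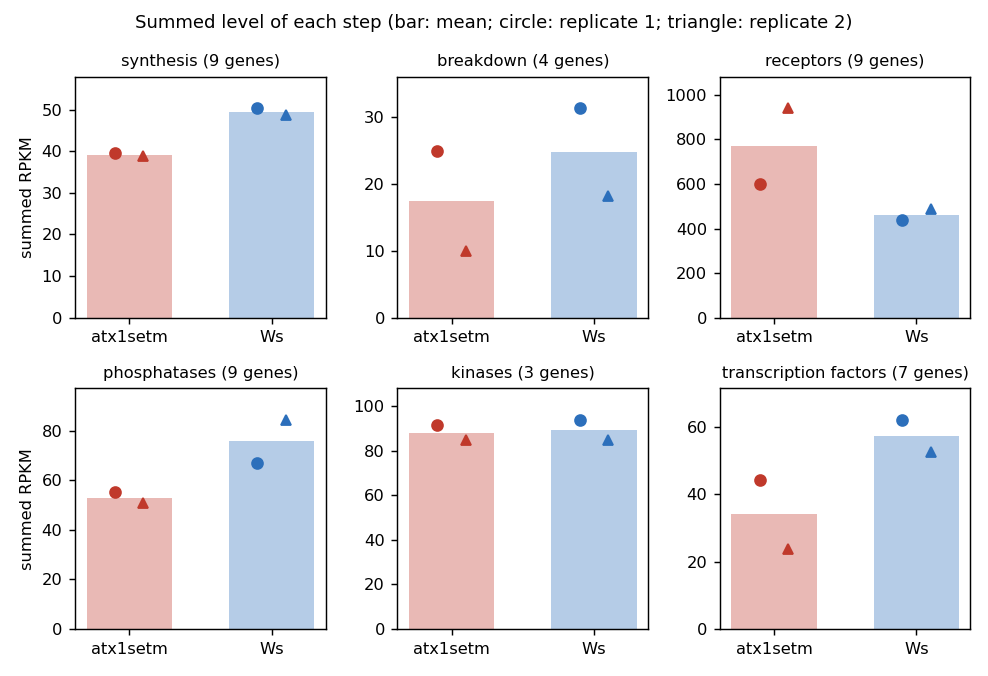
Summed RPKM of the genes of each step (vertical axis, starting at 0, with its own scale in each panel) in *atx1setm* (left, red) and Ws (right, blue). Bars are means of 2 libraries, circles replicate 1 and triangles replicate 2, and the receptors, at 600 and 939 RPKM in *atx1setm* against 436 and 487 RPKM in Ws, are the step with higher sums in the mutant.

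Of the 41 genes, 38 had enough reads to be tested. The other 3 were *CYP707A4*, with 2 and 6 reads in *atx1setm* and 4 and 2 in Ws, and the seed regulators *ABI3* and *ABI4*, with at most 1 read in any library. The median log2 fold change of the 38 genes was -0.35, against -0.01 for all 20714 genes tested, and 25 genes had values below 0 and 13 above. By edgeR's quasi-likelihood test, 5 of the 38 were lower in *atx1setm* at an unadjusted p under 0.05, namely *NCED3*, *CYP707A3*, *HAI2*, *HAI3* and *ABF3*, and the background of such genes was 4.78% of all genes tested. Another 3 were higher, namely *NCED6*, *PYL5* and *PYL6*, against a background of 4.93% (9.71% in either direction). After Benjamini-Hochberg adjustment this test called 0 of the 38, and 0 of the 20714 (0%). The exact test of edgeR called *NCED3* alone as lower (background 2.23%) and none as higher (1.69%), and DESeq2 called *NCED3* as lower (1.75%) and *PYL6* as higher (1.46%). In 14 of the 38 genes both *atx1setm* libraries lay below both Ws libraries in CPM, and in 7 they lay above, where the backgrounds were 20% and 19.6%. The first share is above its background and the second is close to it.

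These counts moved when single libraries were left out. A fit without 1 library rests on the spread between the 2 libraries of the other genotype, and the lone library is assumed to vary likewise, so its p-values move for all genes. At an unadjusted p under 0.05 there were 14 lower and 7 higher genes without *atx1setm* replicate 1, but the backgrounds in that fit were 19.1% and 17.2%, and the 7 higher genes of 38 are close to theirs. Without *atx1setm* replicate 2 there were 8 lower genes (background 6.35%), without Ws replicate 1 there were 3 (2.15%), and without Ws replicate 2 there were 2 lower (3.50%) and 1 higher (3.39%). The median of the 38 genes was -0.61 without *atx1setm* replicate 1 and -0.11 without *atx1setm* replicate 2. With the exon length offset there were 6 lower and 3 higher genes, a median of -0.25, and backgrounds of 6.26% lower and 5.65% higher.

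**Figure D2:**
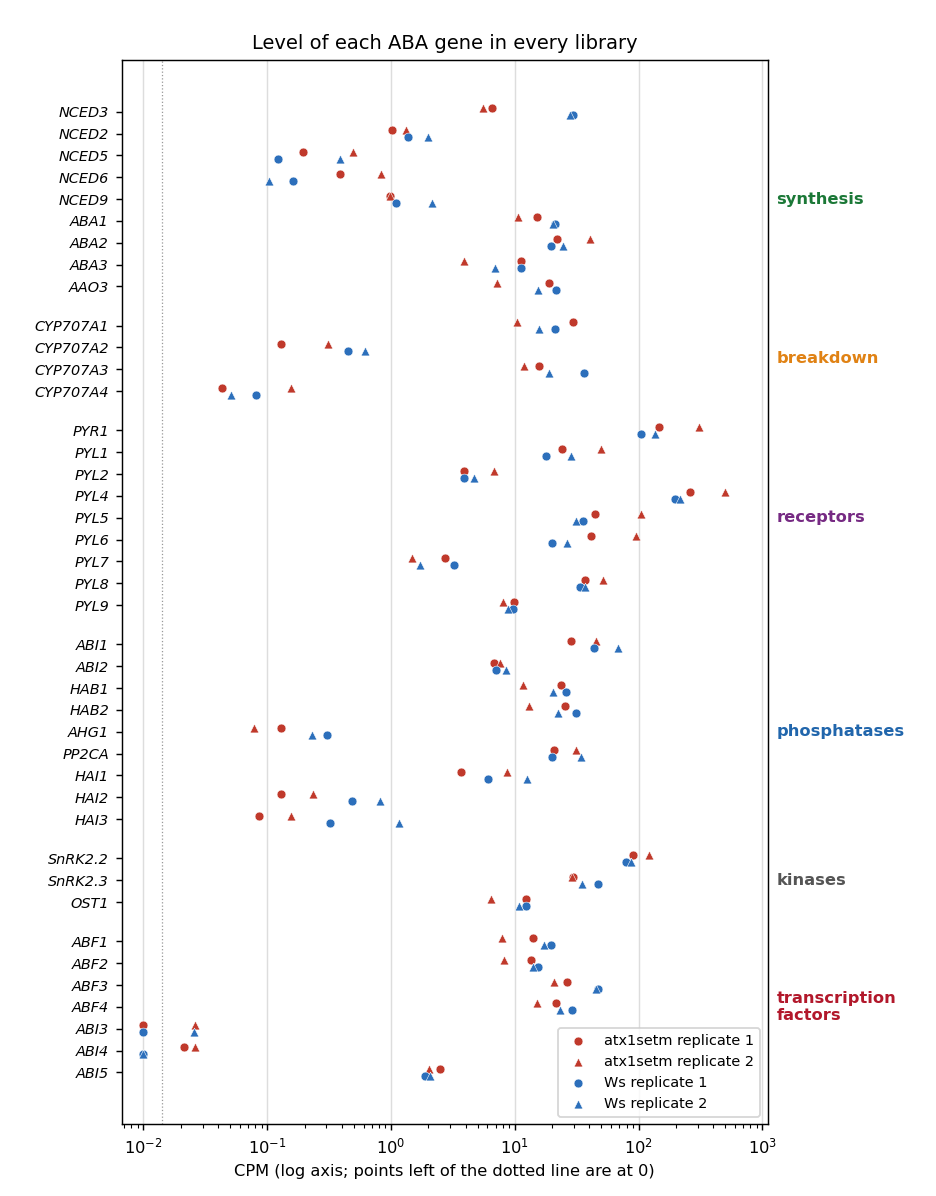
CPM of each of the 41 genes (horizontal log axis, points left of the dotted line at 0) in *atx1setm* (red) and Ws (blue), with circles for replicate 1 and triangles for replicate 2. *NCED3* shows the clearest gap between genotypes, with 6.49 and 5.56 CPM in *atx1setm* and 29.5 and 27.7 CPM in Ws, while in the receptors *atx1setm* replicate 2 lies to the right of the other libraries for most genes.

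Among the synthesis genes, *NCED3* (AT3G14440, chromosome 3 of TAIR10 from 4831288 to 4833599, 1 exon) had the smallest p of the 38 genes. It encodes the dioxygenase that limits ABA synthesis under drought, and it is known from earlier work as a gene whose induction by drying depends on ATX1. It had 303 and 214 reads in *atx1setm* and 1455 and 1079 in Ws, so the groups were far apart and the replicates close together. The log2 fold change was -2.25 (SE 0.25), a 4.74-fold lower level, with an adjusted p of 0.0902 from the quasi-likelihood test, 5.94e-08 from edgeR's exact test and 5.74e-07 from DESeq2. The length offset left it at -2.04 (SE 0.19, adjusted p = 0.0419 from the quasi-likelihood test). In every alternative run its log2 fold change lay between -2.36 and -2.04, with an adjusted p between 2.83e-17 and 0.133.

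The other dioxygenase genes were weakly expressed. *NCED6*, known from seed, had 18 and 32 reads in *atx1setm* and 8 and 4 in Ws, a log2 fold change of 2.14 (SE 0.62, unadjusted p = 0.0182, adjusted p = 0.354 from the quasi-likelihood test). All 4 of these counts are small, and the unadjusted p was 0.0675 without *atx1setm* replicate 2 and 0.0910 without Ws replicate 2. *NCED2*, *NCED5* and *NCED9* had between 6 and 84 reads per library and log2 fold changes of -0.52, 0.45 and -0.71, none of which passed the test. The 5 dioxygenase genes together gave 4.50 and 3.68 RPKM in *atx1setm* and 14.9 and 14.4 RPKM in Ws. *NCED3* made up 67.1 and 55.1% of this sum in *atx1setm* and 89.6 and 83.1% in Ws, and the remainder was therefore a larger part of a smaller sum in the mutant.

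The synthesis gene with the highest level per exon length was *ABA2*, the short chain dehydrogenase, with 20.0 and 29.1 RPKM in *atx1setm* and 17.5 and 20.5 RPKM in Ws. The groups overlapped, and its log2 fold change was 0.51 (SE 0.37). *ABA1*, the zeaxanthin epoxidase, did not overlap, with 15.2 and 10.7 CPM in *atx1setm* and 21.3 and 20.3 CPM in Ws and a log2 fold change of -0.69 (SE 0.27, unadjusted p = 0.0543 from the quasi-likelihood test). With the length offset its unadjusted p was 0.0468. *AAO3*, the aldehyde oxidase, and *ABA3*, which makes the molybdenum cofactor that this oxidase needs, had values of -0.49 and -0.27 and differed more between the replicates of a genotype than between genotypes. Both are long genes, of 5294 and 2758 nt, and with the offset their values were -0.02 and -0.05.

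Of the breakdown genes, *CYP707A3* (AT5G45340) was lower in *atx1setm* at the unadjusted threshold. It had 726 and 458 reads in *atx1setm* and 1773 and 736 in Ws, or 15.6 and 11.9 CPM against 36.0 and 18.9 CPM. Its log2 fold change was -1.0 (SE 0.39, unadjusted p = 0.0495, adjusted p = 0.511 from the quasi-likelihood test). The groups did not overlap, but the 2 Ws libraries differed widely, and without Ws replicate 1 the value was -0.46 (unadjusted p = 0.447). The gene also missed the threshold with library totals (unadjusted p = 0.0689), with at least 10 counts in every library (0.0510) and in both limma-trend fits (0.0738 and 0.0714). *CYP707A1* was at a similar level, with 29.6 and 10.5 CPM in *atx1setm* and 21.1 and 15.7 CPM in Ws, and its groups overlapped. Its log2 fold change of 0.13 (SE 0.53) turned to -0.80 without *atx1setm* replicate 1. *CYP707A2*, a gene known for seed germination, had only 6 and 12 reads in *atx1setm* and 22 and 24 in Ws, a log2 fold change of -1.28 (SE 0.59) that missed the threshold.

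The receptors were the step in which most values lay above 0, with 7 of 9 (6 of 9 with the length offset) and a median log2 fold change of 0.68. Of these, *PYL5* and *PYL6* were higher at the unadjusted threshold (background 4.93%). In 5 of 9 both *atx1setm* libraries lay above both Ws libraries (background 19.6%). The most abundant receptor gene was *PYL4*, with 251 and 383 RPKM in *atx1setm* and 186 and 195 RPKM in Ws. Its groups did not overlap, and its log2 fold change was 0.88 (SE 0.39, unadjusted p = 0.0731 from the quasi-likelihood test). *PYR1* came next, with 186 and 308 RPKM in *atx1setm* and 130 and 161 RPKM in Ws and a log2 fold change of 0.91 (SE 0.42).

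*PYL6* (AT2G40330) had 1909 and 3694 reads in *atx1setm* and 981 and 1033 in Ws. Its log2 fold change was 1.56 (SE 0.47), a 2.95-fold higher level, with an unadjusted p of 0.0204 and an adjusted p of 0.367 from the quasi-likelihood test and an adjusted p of 0.0266 from DESeq2. *PYL5* (AT5G05440) had 2083 and 4006 reads in *atx1setm* and 1746 and 1219 in Ws, a log2 fold change of 1.16 (SE 0.44, unadjusted p = 0.0477, adjusted p = 0.506 from the quasi-likelihood test). In both genes the lower mutant library was replicate 1, and without replicate 2 the values were 0.83 for *PYL6* and 0.44 for *PYL5*. The unadjusted p of *PYL5* was above 0.05 also without either Ws library.

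The 9 receptors fall into 3 subfamilies. *PYL4*, *PYL5* and *PYL6* had values of 0.88 to 1.56, the dimer-forming *PYR1*, *PYL1* and *PYL2* of 0.32 to 0.91, and *PYL7*, *PYL8* and *PYL9* of -0.23 to 0.33. *PYL8*, a receptor known for its part in lateral root growth, had 36.9 and 51.1 CPM in *atx1setm* and 33.4 and 36.6 CPM in Ws, without overlap. *PYL1*, *PYL2*, *PYL7* and *PYL9* overlapped between genotypes. *PYL7* to *PYL9* are also the ones with introns, with 3 to 4 exons against 1 exon in the other 6. The medians of these 3 groups were 1.16, 0.68 and -0.06, but their ranges met, with *PYL2* at 0.32 and *PYL8* at 0.33. Subfamily and exon number cannot be told apart here.

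The receptor genes are the shortest of the 6 steps, with 573 to 1262 nt of exon, and short genes had positive values in general. With the length offset the receptor median was 0.39, with 6 values above 0 and 3 below, and *PYL2* turned from 0.32 to -0.10. *PYL6* then had a value of 1.35 (SE 0.36, unadjusted p = 0.0131) and *PYL5* of 1.00 (SE 0.37, unadjusted p = 0.0415), both from the quasi-likelihood test. Leaving out *atx1setm* replicate 2 gave a receptor median of 0.16, and leaving out *atx1setm* replicate 1 gave 1.11, so the size of the difference depended on which mutant library was kept. The part of transcript length in the remaining difference was not tested.

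**Figure D3:**
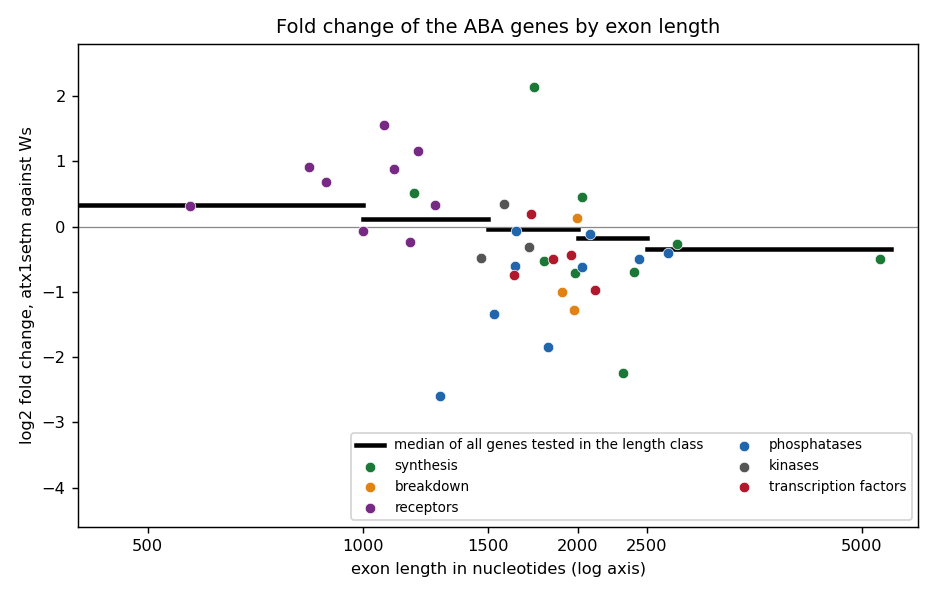
Log2 fold change of *atx1setm* against Ws (vertical axis) for each of the 38 genes tested, by exon length in nt (horizontal log axis), with steps in colour. Black lines are the medians of all genes tested in 5 length classes, from 0.33 in the shortest to -0.34 in the longest, and the receptors, at 573 to 1262 nt, lie on the left where the medians are positive.

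The phosphatases, which the receptors inhibit, had a median log2 fold change of -0.60, and all 9 values lay below 0, although 4 of them turned above 0 under at least 1 other setting. Only *HAI2* and *HAI3* passed the unadjusted threshold (background 4.78% lower). In 3 of the 9 both *atx1setm* libraries lay below both Ws libraries (background 20%). *HAI2* (AT1G07430) had 6 and 9 reads in *atx1setm* and 24 and 32 in Ws, a log2 fold change of -1.85 (SE 0.56, unadjusted p = 0.0216, adjusted p = 0.378 from the quasi-likelihood test). *HAI3* (AT2G29380) had 4 and 6 reads in *atx1setm* and 16 and 45 in Ws, a log2 fold change of -2.59 (SE 0.83, unadjusted p = 0.0258, adjusted p = 0.409 from the same test). The HAI genes are named for their strong induction by ABA, and these 2 were close to the lower limit of detection in root. *HAI2* had an unadjusted p above 0.05 in DESeq2 (0.0530) and without *atx1setm* replicate 1 (0.0687), and neither gene passed without Ws replicate 2. Their relative *HAI1* was better expressed, with 3.64 and 8.65 CPM in *atx1setm* and 6.10 and 12.5 CPM in Ws, and its groups overlapped.

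*ABI1* was the most abundant phosphatase gene, with 15.0 and 18.7 RPKM in *atx1setm* and 22.6 and 33.8 RPKM in Ws. In CPM the groups overlapped slightly, with 28.4 and 44.9 in *atx1setm* and 43.8 and 68.6 in Ws, and the log2 fold change of -0.62 (SE 0.36) did not pass the test. *AHG1*, a phosphatase of seed, had 6 and 3 reads in *atx1setm* and 15 and 9 in Ws. *ABI2*, *HAB1*, *HAB2* and *PP2CA* had values of -0.11, -0.40, -0.49 and -0.06. The shared direction of the 9 genes is not firm, since *ABI2* turned to 0.05 with the length offset, *PP2CA* to 0.21 without *atx1setm* replicate 1, *HAB1* to 0.04 without *atx1setm* replicate 2, and *ABI2*, *PP2CA* and *HAI1* to between 0.01 and 0.39 without Ws replicate 2.

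The ratio of summed receptor RPKM to summed phosphatase RPKM was 10.8 and 18.5 in *atx1setm* and 6.49 and 5.76 in Ws. The 2 mutant libraries lay above both Ws libraries. This ratio is of transcripts per exon length, and it compares a short family with a longer one, so the length trend enters it directly.

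The 3 kinases that act in ABA signaling differed little. *SnRK2.2*, the most abundant, had 61.9 and 65.1 RPKM in *atx1setm* and 52.7 and 55.2 RPKM in Ws, and its log2 fold change was 0.35 (SE 0.26). *SnRK2.3* had a value of -0.48 (SE 0.26), also without overlap between groups, and *OST1*, the kinase known from guard cells, of -0.31 (SE 0.38) with overlap. None of the 3 passed the unadjusted threshold.

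At the end of the pathway stand the ABF transcription factors, and all 4 were lower in both *atx1setm* libraries than in either Ws library. The same held for 20% of all genes tested. *ABF3* (AT4G34000), the most abundant of them, had 1236 and 796 reads in *atx1setm* and 2339 and 1761 in Ws, or 26.5 and 20.7 CPM against 47.4 and 45.2 CPM. Its log2 fold change was -0.97 (SE 0.25), a 1.96-fold lower level, with an unadjusted p of 0.0114 and an adjusted p of 0.296 from the quasi-likelihood test. With the length offset it was -0.82 (SE 0.18, unadjusted p = 0.00553). The value lay between -1.16 and -0.79 in every alternative, although the unadjusted p was 0.120 without Ws replicate 1 and 0.0987 without Ws replicate 2.

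*ABF1*, *ABF2* and *ABF4* had log2 fold changes of -0.74, -0.44 and -0.50 and did not pass the threshold. Their values were -0.72, -0.34 and -0.42 with the offset, and none of the 4 ABF genes changed sign in any alternative. *ABI5*, the related factor of germination, had 2.49 and 2.03 CPM in *atx1setm* and 1.89 and 2.08 CPM in Ws, with overlap and a log2 fold change of 0.19 (SE 0.33).

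**Figure D4:**
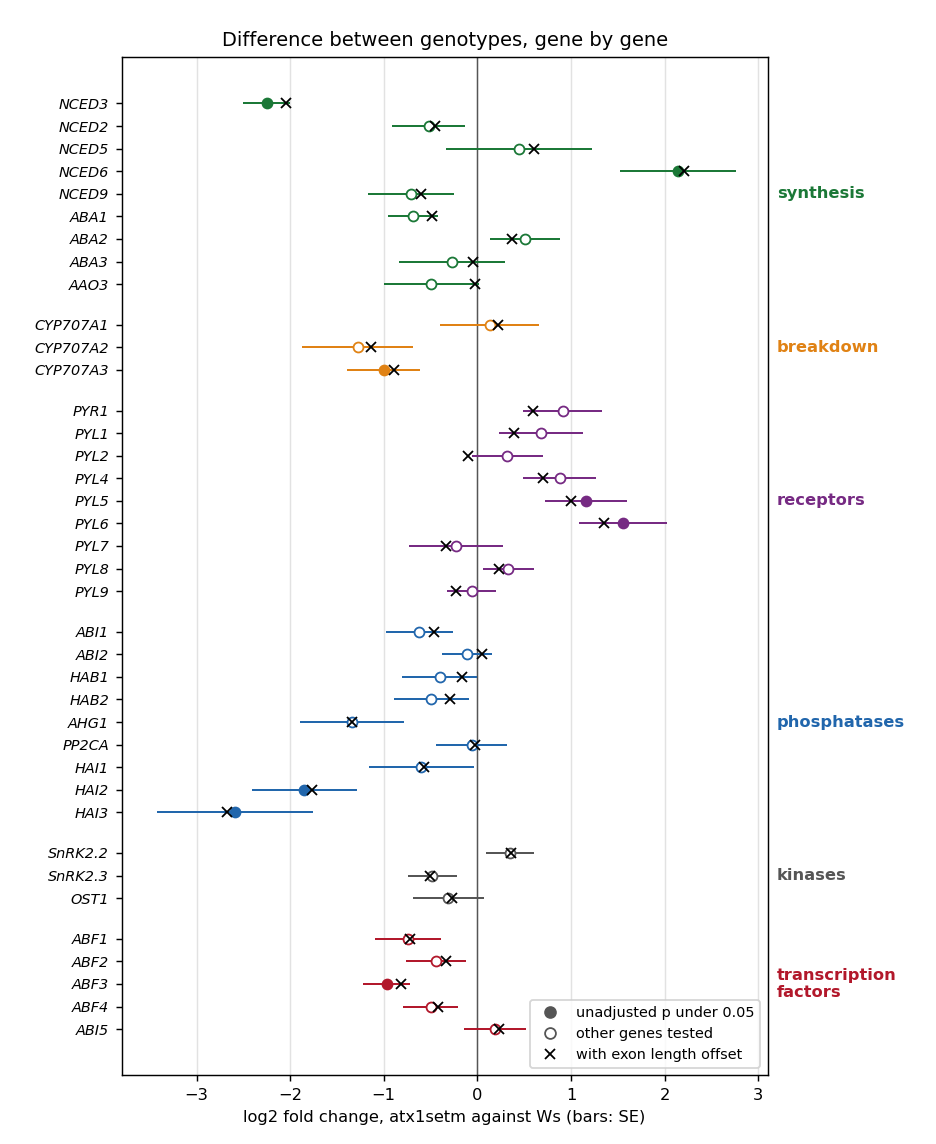
Log2 fold change of *atx1setm* against Ws (horizontal axis) for the 38 genes tested, ordered by step, with bars for the SE. Filled circles are the 8 genes at an unadjusted p under 0.05, and crosses are the values with the exon length offset, which draws the receptor median to 0.39 and leaves *NCED3* at -2.04.

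Other genes of the pathway, taken from a list of 31 that holds further transporters, conjugating enzymes, receptors, kinases and regulators, showed no common direction. Of the 27 that could be tested, 3 were lower and 2 higher at an unadjusted p under 0.05 by the quasi-likelihood test (backgrounds 4.78% and 4.93%), and the median log2 fold change was 0.08. With the exon length offset 5 were lower and 4 higher (6.26% and 5.65%), with a median of 0.09. The median of this list was -0.05 without *atx1setm* replicate 1 and 0.12 without *atx1setm* replicate 2. It was 0.12 without Ws replicate 1 and -0.07 without Ws replicate 2. The smallest p belonged to 2 kinases of the same family that ABA does not activate or activates weakly. *SnRK2.9* had 1744 and 1452 reads in *atx1setm* and 984 and 865 in Ws, a log2 fold change of 0.83 (unadjusted p = 0.0144 from the quasi-likelihood test). *SnRK2.5* had 485 and 300 reads in *atx1setm* and 924 and 616 in Ws, a log2 fold change of -0.92 (unadjusted p = 0.0198 from the same test). The remaining 3, named after their values were seen, were the bZIP factor gene *EEL* (-0.75), the ABI5 binding protein gene *AFP1* (-0.78) and the ABA exporter gene *ABCG31* (1.99, with 35 and 12 reads in *atx1setm* and 9 and 3 in Ws).

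Genes that ABA is known to induce were examined as the output of the pathway. Their list was chosen with earlier results of these data known, so its counts are not an independent readout. The paper already reports *LEA7*, *RD29B* and *RAB18* as differentially expressed in these libraries, and these are the 3 genes of the list that DESeq2 called. Of a list of 26, 23 could be tested, and 6 were lower and 0 higher in *atx1setm* at an unadjusted p under 0.05 by the quasi-likelihood test. The backgrounds were 4.78% and 4.93%. At the same threshold the exact test gave 6 lower and 2 higher (5.13% and 5.93%), and DESeq2 gave 5 and 2 (4.46% and 5.76%). In both tests the 2 higher genes were *LTP3* and *MYBR1*. After adjustment the quasi-likelihood test called 0, the exact test of edgeR called 5 of the list as lower (background 2.23%) and DESeq2 called 3 (1.75%), and the median of the list was -0.25. With the exon length offset 8 were lower and 1 higher (6.26% and 5.65%), with a median of -0.35. At least 10 counts in every library left 2 lower of 18 tested (background 4.34%). With a library left out the median of the list lay between -0.58 and -0.14. The smallest p belonged to *LEA7*, a late embryogenesis abundant protein gene, with 11 and 3 reads in *atx1setm* and 398 and 231 in Ws, a log2 fold change of -5.42 (adjusted p = 0.0902 from the quasi-likelihood test). *RD29B*, whose promoter holds paired ABA response elements, had 6 and 7 reads in *atx1setm* and 142 and 70 in Ws, a log2 fold change of -3.90. In both genes the 2 mutant libraries lay far below either Ws library. *COR47*, the most strongly expressed of the list in CPM, had 641 and 568 CPM in *atx1setm* and 1050 and 737 CPM in Ws, a log2 fold change of -0.56 that did not pass the test.

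Set beside the core element in the windows printed above, 4 of the 5 genes lower at the unadjusted threshold held ACGTG before the RefSeq start and 5 of 5 before the deposited start. Of the 3 higher genes, 0 held it with either start. Among the other 33 genes, 15 held it with the RefSeq start and 17 with the deposited start. Among all protein-coding genes the core was present in 22.9% of windows with the RefSeq starts and 25.0% with the deposited starts. The counts by direction cover few genes and are given as a description, and a link between the core and direction was not tested.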

How the data were processed

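RNA from whole roots of 2 *atx1setm* and 2 Ws samples was sequenced as single-end reads. The authors trimmed the reads, mapped them to TAIR10 and made the deposited counts per gene in CLC Genomics Workbench, and FastQC is named in the submitters' processing notes. The deposited RPKM were scaled by the authors to exon length and to mapped reads. How reads were mapped and whether strand was used in counting is not given in the sources used here, and overlapping antisense genes can therefore share reads. The other columns hold annotation, and the authors' own comparison (fold change, p and its correction) was not used. A further 52 columns of single samples stayed out.

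Exon reads (38574293 to 46439122 per library) were filtered with filterByExpr, which kept 20714 genes, scaled by TMM, and tested with edgeR 4.0.16 (quasi-likelihood, legacy fit, R 4.3.3) with Benjamini-Hochberg adjustment over all genes. The biological coefficient of variation was 0.303. Fold changes are *atx1setm* against Ws, and an SE comes from the model. With 2 libraries per genotype, p-values measure only the spread between these samples. The test was also run on simulated data. Alternatives were the exact test of edgeR, DESeq2 1.42.0, a replicate block, RLE, library totals, no filter, at least 10 counts, gene reads, limma-trend (3.58.1) on log2(RPKM + 0.5) or log2(RPKM + 0.1), and leaving out each library. The test without the legacy fit and an exon length offset (lowess of each library's log2 deviation on log2 exon length) were added after seeing the data.

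The 41 genes and the gene lists were chosen with earlier results of these data known. Full values are given for members with an unadjusted p under 0.05, the most abundant gene of each step by RPKM, and members called by the exact test. They are also given for the 2 genes with the smallest p in the list of other pathway genes and in the list of ABA-induced genes. Any other gene with values was chosen after they were seen. Windows of 250 bases came from the RefSeq genome (TAIR10.1), whose gene starts equal the deposited ones for 10117 of 28009 loci. Protein identity, planned for the families, was not analysed here.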

Additional observations from a re-analysis of the deposited data

How the results depend on the processing

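The count of genes called at an adjusted p under 0.05 was 0 by the quasi-likelihood test. It was 1 by the exact test, 2 by DESeq2, 1 with no filter on low counts and 1 with the exon length offset, and 1 to 16 when each library was left out. Calls among all genes were 3.92% by the exact test, 3.22% by DESeq2, 0.330% with no filter and 0.492% with the offset. They were 0.697% to 4.53% when a library other than *atx1setm* replicate 1 was left out and 21.7% without that one, the fit with 16 called. *NCED3* was among the genes called in each of these. Genes lower at an unadjusted p under 0.05, 5 in the main test (background 4.78%), numbered 2 with at least 10 counts in every library (4.34%). Genes higher at that threshold numbered 3 in the main test (background 4.93%) and 5 by DESeq2 (5.76%). They numbered 1 to 7 with a library left out, where 1.96% to 17.2% of all genes were higher. The 7 of 38 came without *atx1setm* replicate 1, the fit with 17.2%, and are close to that background. The median log2 fold change of the genes moved between -0.61 and -0.11 with a library left out. RLE scaling, library totals, gene reads, both RPKM fits and the test without the legacy fit left all 4 of these results within 1.5 times the main count, or the median within 0.214, the SD over the fits with a library left out.

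With the replicate number as a block, 16 genes were lower and 6 higher at an unadjusted p under 0.05, where the shares of all genes were 16.1% and 14.3%, so that the 6 of 38 higher are near their background, and 14 were called at an adjusted p under 0.05 (8 lower, 6 higher). Under the same block 9.90% of all genes were called lower and 8.87% higher. Over 20714 genes, libraries with the same number deviated from their genotype's mean together (Pearson's r = 0.746). The labels do not state that a number marks a shared batch, and there are only 2 pairs, so the libraries may share no more than a number.

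Of the 601 values that the alternatives gave for single genes, 23 turned in sign, in 12 genes, of which 1 was at an unadjusted p under 0.05. The turned values of *CYP707A1* (0.13 in the main test) were -0.03 with the replicate block, -0.12 and -0.14 in the RPKM fits with 0.5 and 0.1 added, and its range with a library left out was -0.80 to 0.71. With the exon length offset *PYL2* turned to -0.10 and *ABI2* to 0.05. The ranges with a library left out that crossed 0 were -0.33 to 1.47 for *NCED5*, -1.22 to 0.32 for *ABA3*, -1.36 to 0.07 for *AAO3*, -0.11 to 0.67 for *PYL2*, -0.75 to 0.30 for *PYL7*, -0.21 to 0.10 for *PYL9*, -0.25 to 0.05 for *ABI2*, -0.99 to 0.04 for *HAB1*, -0.40 to 0.39 for *PP2CA*, -1.33 to 0.01 for *HAI1* and -0.86 to 0.11 for *OST1*. Low read counts limit *NCED6*, *HAI2*, *HAI3* and *AHG1*. The cause of these changes was not tested.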
